A study of Mus musculus with 12 samples.

Results

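The activation and effector markers followed here in Vg4+Vd4+ gamma delta T cells are 10 of the 45796 genes in the deposited table. The genes were Cd44, Icos, Cd69, Il2ra, Ctla4 and Pdcd1, which encode cell surface receptors, and Lgals1, S100a4, S100a6 and Nfatc1, whose products are a lectin, a pair of small calcium-binding proteins and a transcription factor. Each was found in the table by its gene symbol. Of the 10, 9 were above 0 in at least 1 library, and 7 passed the filter on low values and could be tested.

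The T cells were taken from skin-draining lymph nodes of C57BL/6 mice, with 4 groups of 3 libraries. The groups were wild-type mice given sham cream, NF-kB1-deficient mice given sham cream, wild-type mice given imiquimod cream and NF-kB1-deficient mice given imiquimod cream. Imiquimod activates Toll-like receptors and inflames mouse skin when it is applied repeatedly, and NF-kB1 is the p105 and p50 subunit of the NF-kB transcription factors. The labels do not give the age of the mice, the duration of treatment, the allele behind the deficiency, whether it is limited to some cells, or whether mice were pooled.

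A T cell that meets its antigen or strong cytokine signals changes its surface within hours to days. CD69 appears early and holds the cell in the lymph node by pulling the exit receptor S1PR1 from the membrane. The IL-2 receptor alpha chain and the costimulatory receptor ICOS follow, and the inhibitory receptors CTLA-4 and PD-1 restrain the response. CD44, which binds hyaluronan, galectin-1 (Lgals1) and the S100 proteins stay high in effector and memory cells, and IL-17-producing gamma delta T cells are known for high CD44 before any challenge. NF-kB and NFAT factors act on the promoters or enhancers of several of these genes.

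Depth was low. The values are normalized read counts on a linear scale, recovered from the deposited log2 numbers, and their steps give an estimated 20507 to 69454 reads on genes per library (median 35383). A single read was worth 0.488 to 1.98 of the normalized value, so a value of 20 stands for about 10 to 40 reads. Any log2 value of 0 or less was taken as 0, so no linear value can lie between 0 and 1. A gene listed at 0 may therefore still have had 1 read in the 5 libraries where a read was worth less than 1. In the deepest library it may have had 2. Gapdh, which every cell uses, was listed at 0 in 5 libraries, whereas Actb stood between 97.0 and 213 in all 12. For this reason groups that hold zeros are given library by library, without a mean. Whether the libraries of a group stem from different mice is not said in the labels. The p-values therefore rest on a spread between libraries that may be technical. That spread is mostly shared over genes rather than taken from the single gene (8 residual and a median of 145 prior degrees of freedom).

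The labelled cell type was checked against its markers. Tcrd, the T cell receptor delta locus, was present in all 12 libraries, at 65.8 to 76.8 in wild-type sham and 14.2 to 30.5 in wild-type imiquimod, and at 40.3 to 72.8 and 53.5 to 62.8 in the NF-kB1-deficient sham and imiquimod groups. Of the 19 gamma delta T cell markers 15 had a row in the table and 10 were above 0 somewhere. Of the gamma chain, the locus entry Tcrg was above 0 in all libraries, at 34.9 to 64.4 in wild-type sham and 11.5 to 45.6 in wild-type imiquimod, and Tcrg-C2 as well (1.095 to 28.3). Tcrg-V4, Tcrg-C1 and Tcrg-C4 were listed at 0 throughout. Tcrb, the beta chain locus, stood at 57.4 to 103 in all libraries. Of the 9 alpha beta T cell markers, which include it, 5 were above 0 somewhere. Among them were Tcra (up to 14.2) and Cd8b1 (up to 17.3), while Cd4 was listed at 0 throughout. Of the 7 NK and innate lymphoid cell markers 3 were above 0 somewhere, among them Gata3 (up to 19.3) and Eomes (up to 10.5). Their sum reached 27.0 in wild-type sham, 13.8 in NF-kB1-deficient sham, 15.85 in wild-type imiquimod and 23.75 in NF-kB1-deficient imiquimod. B cell (8 genes) and neutrophil (7 genes) markers were listed at 0 in every library. So was Foxp3, the defining factor of regulatory T cells, which carry much ICOS, CTLA-4 and CD25. Of the 7 regulatory T cell markers 3 were above 0 somewhere. Ikzf2 among them was above 0 in all 12 libraries, at 31.9 to 37.3 in wild-type sham.

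Promoter sequence is shown for a pair of members because part of the mice are labelled NF-kB1 deficient. Both stretches cover the 250 bases before the start site that the promoter table uses (RefSeq, GRCm38.p6), read 5′ to 3′ on the gene's own strand, with motif matches in capitals. The Cd44 stretch lies at chr2:102901666-102901915 on the minus strand. The start used there lies 4 bases inside the outer end of the gene as annotated, so the stretch holds those 4 bases. Its capitals mark the core of the NFAT motif (GGAAAA). The Il2ra stretch lies at chr2:11642542-11642791 on the plus strand, and its capitals mark a match to the NF-kappaB consensus.

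Cd44: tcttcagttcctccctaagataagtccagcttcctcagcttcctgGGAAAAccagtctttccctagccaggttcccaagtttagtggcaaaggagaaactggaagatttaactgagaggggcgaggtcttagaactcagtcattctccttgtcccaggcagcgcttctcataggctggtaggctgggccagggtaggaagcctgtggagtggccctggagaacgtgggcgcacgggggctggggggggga
Il2ra: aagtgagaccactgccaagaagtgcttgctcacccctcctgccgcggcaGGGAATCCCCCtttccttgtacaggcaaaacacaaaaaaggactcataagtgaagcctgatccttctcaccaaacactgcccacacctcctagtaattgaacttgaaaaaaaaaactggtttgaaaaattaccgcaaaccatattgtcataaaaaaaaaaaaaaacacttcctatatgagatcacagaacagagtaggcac

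Of the 6 members with a promoter in the table that could be searched (Cd44, S100a4, S100a6, Il2ra, Ctla4 and Pdcd1), Il2ra alone held the NF-kappaB consensus, 201 to 191 bases before the start in that table. That motif, searched on both strands, was in 7.0% of the 27025 promoters of the same length. The NFAT core, also searched on both strands, was in Cd44 (205 to 200 bases before the start in that table) and in Ctla4, and in 20.6% of all promoters. The AP-1 motif TGANTCA was in none of the 6 and in 6.9% of all promoters. Overlapping matches of 1 motif were counted once. These are letter matches in a short window, not measured binding sites.

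The main comparison asked how the markers respond to imiquimod in wild-type cells. Galectin-1, CD44 and ICOS transcripts were at their highest in the wild-type imiquimod libraries. The test across all genes called Lgals1, and left Cd44 and Icos short of the threshold. S100a4, S100a6, Cd69 and Nfatc1 overlapped between sham and imiquimod. Of the 7 tested members 1 was called higher and 0 lower at an adjusted p under 0.05. Of all 1571 tested genes 3.25% were called, 1.65% higher and 1.59% lower, or 26 of 51 higher. With library totals scaled to be equal the split was 19 of 48 higher. At an unadjusted p under 0.05 there were 3 members (Lgals1, Cd44 and Icos) and 19.9% of all genes. The median log2 fold change was 0.96 over the 7 members and -0.07 over all tested genes. Over the 9 libraries outside wild-type imiquimod, Lgals1 and Cd44 had medians of 2.79 and 3.78. These genes reached the filter mean of 5 only through wild-type imiquimod, so the member counts and median lean on the group tested.

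Lgals1 encodes galectin-1, a lectin that binds sugars on surface proteins and is made by activated T cells (Entrez 16852; GRCm38 chromosome 15, 78926725 to 78930465, protein coding). It was at 38.8, 41.6 and 62.4 in the wild-type imiquimod libraries, which stand for an estimated 37, 39.5 and 31.5 reads. In wild-type sham it was listed at 0 in replicates 1 and 3 and at 11.2 (23 reads) in replicate 2. The 3 imiquimod libraries lay above the 3 sham libraries and above all 6 libraries of NF-kB1-deficient mice. The log2 fold change was 4.37 ± 1.16 (SE; 95% interval 2.07 to 6.66), with a limma adjusted p of 0.0145. Lgals1 was the gene with the 26th lowest p of 1571, and by group mean it ranked 76th of 9732 genes in wild-type imiquimod.

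The size and the call of Lgals1 depended on single libraries. With wild-type sham replicate 1 or 3 left out the limma adjusted p rose to 0.0902 or 0.0958. With replicate 1 or 3 of wild-type imiquimod left out it was 0.0568 or 0.0726. Without wild-type sham replicate 2, the sham library that held its reads, the log2 fold change was 5.57. The call was also lost with a pseudocount of 0.1 (adjusted p = 0.105) and with no filter (0.0970). The sign was positive in all 20 alternative settings.

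Cd44 encodes the hyaluronan receptor that marks antigen-experienced T cells (Entrez 12505; chromosome 2, 102811141 to 102901669, minus strand). Wild-type imiquimod libraries held 19.1, 22.1 and 53.5, and wild-type sham libraries 1.12, 8.05 and 0. The 3 imiquimod libraries were also above the other 9, of which NF-kB1-deficient sham replicate 2 was highest at 15.3. For imiquimod against sham Cd44 had a log2 fold change of 3.46 ± 1.14 (SE; 95% interval 1.21 to 5.70), and Cd44 was not called (limma adjusted p = 0.0706). Without wild-type sham replicate 2 it was called, with 4.34 on the log2 scale and an adjusted p of 0.0448, and with a pseudocount of 10 it was called as well (1.63, adjusted p = 0.0149).

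Icos encodes a costimulatory receptor of the CD28 family (Entrez 54167; chromosome 1, 60960773 to 61000322). Its values were 17.8, 22.1 and 21.8 in wild-type imiquimod, a mean of 20.6 ± 2.39 (SD, n = 3). In wild-type sham it was listed at 0 in replicates 1 and 3 and at 9.19 in replicate 2, which is also the library that held the Lgals1 reads and the most Cd44. These groups did not overlap, but NF-kB1-deficient sham replicate 3, at 18.9, reached into the wild-type imiquimod range. The log2 fold change was 3.31 ± 1.14 (SE; 95% interval 1.06 to 5.56; limma adjusted p = 0.0835), and without wild-type sham replicate 2 it was 4.43 and called (adjusted p = 0.0420).

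Lgals1, Cd44 and Icos were the 3 members whose wild-type groups did not overlap, all of them higher in imiquimod. Among all tested genes 21.5% had non-overlapping groups, 10.7% with imiquimod higher. Depth, receptor transcripts and other marker lists in these libraries were as follows. Estimated depth was 20507 to 35611 reads in wild-type imiquimod and 27960 to 69454 in wild-type sham, and the part of depth in the result was not tested. Tcrd fell in the same libraries (log2 fold change -1.73 ± 0.43, SE; adjusted p = 0.00906), and leaving out wild-type sham replicate 3 ended that call (adjusted p = 0.0505), as did leaving out replicate 1 of wild-type imiquimod (0.0574). The summed gamma delta T cell markers were 44.3 to 93.9 in wild-type imiquimod and 101 to 139 in wild-type sham. That list holds Tcrd itself. Its other members did not move as a set. Tcrg-C2 was at 12.3, 22.3 and 18.8 against 10.5, 17.0 and 28.3 in sham. Maf was at 12.6, 23.2 and 1.98 against 10.6, 9.27 and 5.59. Cd3d was lower in part, at 0, 0 and 21.8 against 8.05, 21.15 and 17.4. Cd247 was at 5.24, 0 and 15.85 against 5.59, 6.345 and 8.695. The locus entry Tcrg, which is not on that list, overlapped between the groups (log2 fold change -1.04 ± 0.48, adjusted p = 0.193). In bulk RNA a change in the share of cells of a type and a change in RNA per cell cannot be told apart.

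Plasma cell markers, of which 6 of 7 in the table were above 0 somewhere, summed to 6.93 to 21.5 in wild-type imiquimod and 0 to 6.21 in wild-type sham. In wild-type imiquimod that sum came from Xbp1, Prdm1 and 1 low value of Sdc1, while Jchain, Mzb1 and Tnfrsf17 were listed at 0. Regulatory T cell markers were lower, at 1.98 to 20.5 against 33.0 to 38.5, and of these Ikzf2 alone was above 0 in wild-type imiquimod. The part of other cells in the marker result was not tested.

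**Figure D1:**
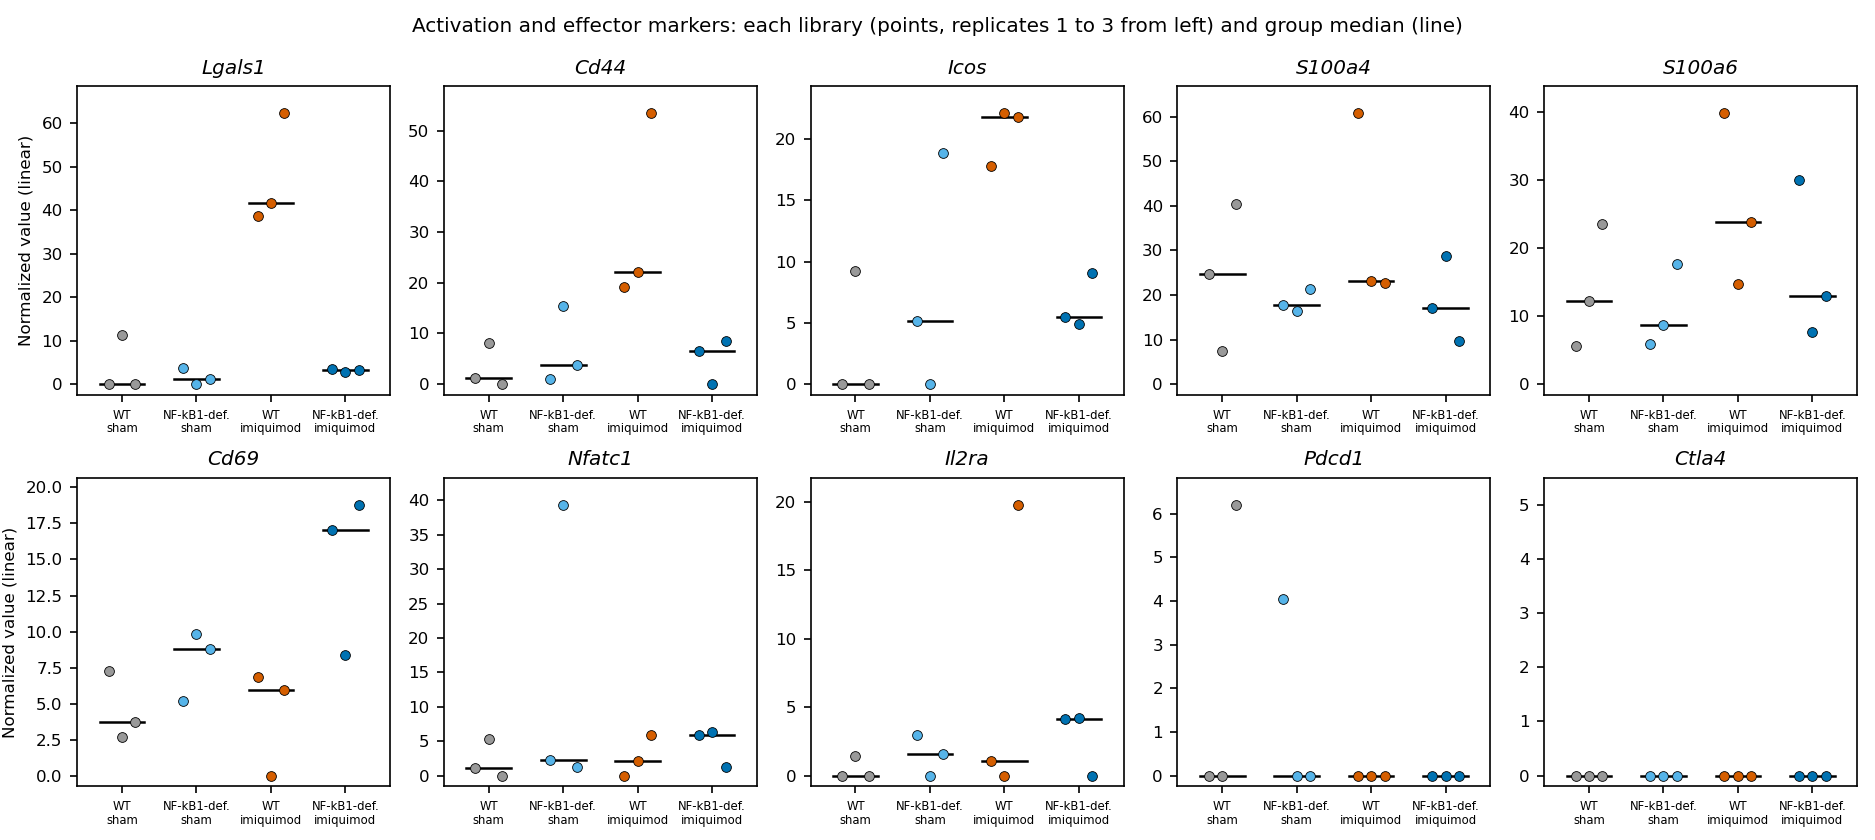
Normalized value (linear, vertical axis) of each of the 10 markers in the 12 libraries, by group; points are libraries in replicate order and lines are group medians. The wild-type imiquimod points of Lgals1 (38.8 to 62.4) and Cd44 (19.1 to 53.5) sit above all other libraries, those of Icos overlap with 1 NF-kB1-deficient sham library, and Ctla4 is listed at 0 throughout.

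The S100 genes overlapped between sham and imiquimod and were not called. S100a4 and S100a6 encode small calcium-binding proteins of effector and memory T cells. They lie 6.8 kilobases apart on chromosome 3 (S100a4, Entrez 20198, 90603770 to 90606045; S100a6, Entrez 20200, 90612894 to 90614414; both plus strand). Both were above 0 in all 12 libraries.

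S100a4 was at 24.6, 7.32 and 40.4 in wild-type sham (24.1 ± 16.5, SD, n = 3) and at 60.8, 23.2 and 22.8 in wild-type imiquimod (35.6 ± 21.8). The spread within each of these groups was wider than the difference between them, and 1 imiquimod library, replicate 1, set its mean apart. Fitted on the log2 scale the difference was 0.67 ± 0.64 (SE; 95% interval -0.60 to 1.94; limma adjusted p = 0.597), and without wild-type sham replicate 2 it was 0.01. S100a6 was at 5.59, 12.2 and 23.6 in wild-type sham (13.8 ± 9.11) and at 39.8, 14.7 and 23.8 in wild-type imiquimod (26.1 ± 12.7). Its log2 fold change was 0.96 ± 0.80 (SE; 95% interval -0.61 to 2.54; adjusted p = 0.522). The Lgals1 estimate of 4.37 lies outside both intervals, but the low end of its own interval (2.07) lies within that of S100a6.

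The early marker Cd69 and the transcription factor gene Nfatc1 did not follow Lgals1, Cd44 and Icos. Cd69 (Entrez 12515; chromosome 6, 129267324 to 129275375) was at 7.27, 2.68 and 3.73 in wild-type sham and at 6.81, 0 and 5.94 in wild-type imiquimod, on 3 to 6.5 reads wherever it was seen. Its log2 fold change was -0.47 ± 1.095 (SE; limma adjusted p = 0.853), and the sign turned (0.49) without wild-type imiquimod replicate 2, the library listed at 0. Nfatc1, which is induced by the calcium pathway in activated lymphocytes (Entrez 18018), was at 1.12, 5.37 and 0 in wild-type sham and at 0, 2.11 and 5.94 in wild-type imiquimod. These groups overlapped fully (0.23 ± 1.35, adjusted p = 0.942), and the sign turned to -0.43 without wild-type imiquimod replicate 3.

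The 3 members under the filter gave few reads. Il2ra, which encodes CD25, the inducible alpha chain of the IL-2 receptor, was listed at 0, 1.46 and 0 in wild-type sham and at 1.05, 0 and 19.8 in wild-type imiquimod. The last value, about 10 reads in replicate 3, was the highest of any library and stood alone in its group. Pdcd1, which encodes PD-1, was above 0 in 2 libraries, wild-type sham replicate 3 (6.21) and NF-kB1-deficient sham replicate 1 (4.04), and listed at 0 in the 6 imiquimod libraries. Ctla4 was listed at 0 in all 12, although Icos, 44.9 kilobases away on chromosome 1, was above 0 in 9. At this depth CTLA-4 and PD-1 transcripts were not detectable in most libraries, which does not show that they were absent.

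**Figure D2:**
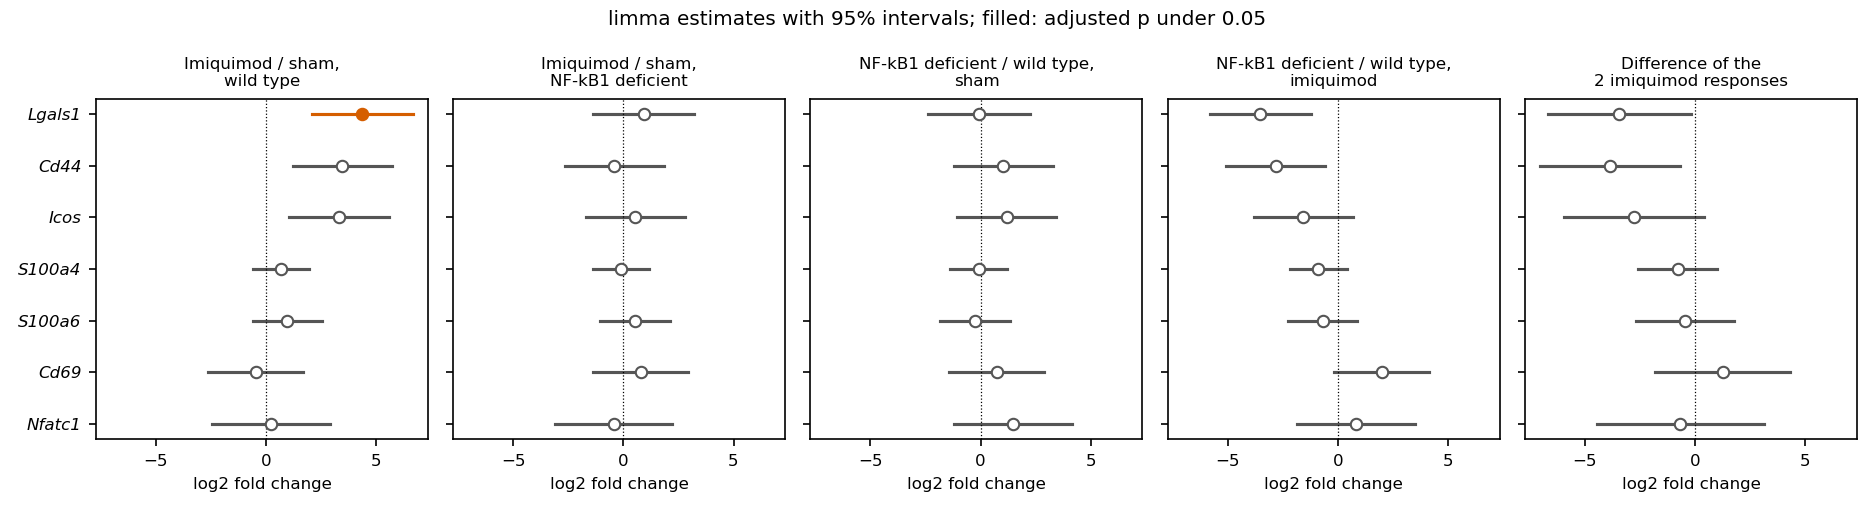
limma log2 fold change (horizontal axis) with 95% interval for the 7 tested markers in each comparison; a filled point has an adjusted p under 0.05. Lgals1 in wild-type cells (4.37) is the single filled point, and all 7 intervals include 0 for imiquimod in NF-kB1-deficient cells and for genotype under sham.

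The imiquimod response of NF-kB1-deficient cells held no called member (0 of 7). No gene of the 1571 was called there either (0%), with 53 genes (3.37%) at an unadjusted p under 0.05 and none of the 7 among them. No member had non-overlapping groups, against 11.7% of all tested genes. For Lgals1 the sham libraries held 3.68, 0 and 1.26, and the imiquimod libraries 3.51, 2.79 and 3.24 (1 to 7 reads where above 0). All 6 libraries thus stayed under 4, while the wild-type imiquimod libraries started at 38.8. The log2 fold change was 0.93 ± 1.16 (SE; 95% interval -1.37 to 3.22; limma adjusted p = 0.996). The NF-kB1-deficient sham libraries held 1.103, 15.3 and 3.78 of Cd44, and the imiquimod libraries 6.51, 0 and 8.43 (-0.40 ± 1.14, adjusted p = 0.996). For Icos the values under sham were 5.15, 0 and 18.9, and those under imiquimod 5.51, 4.89 and 9.08 (0.55 ± 1.14, adjusted p = 0.996). The Cd44 sign turned without NF-kB1-deficient imiquimod replicate 2 (0.62), and that of Icos without NF-kB1-deficient sham replicate 2 (-0.60), so neither has a fixed direction.

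For S100a4 the NF-kB1-deficient sham libraries held 17.6, 16.4 and 21.4 (18.5 ± 2.59, SD, n = 3) and the imiquimod libraries 17.0, 28.6 and 9.73 (18.5 ± 9.54). The means were alike to the third digit, and the fold change had a 95% interval of -1.39 to 1.16 on the log2 scale. For S100a6 the sham values of 5.88, 8.76 and 17.6 lay within the imiquimod range or just under it, at 29.96, 7.68 and 12.97 (0.53 ± 0.80, limma adjusted p = 0.996). Sham libraries held 5.15, 9.85 and 8.81 of Cd69 (7.94 ± 2.47), and imiquimod libraries 17.0, 8.38 and 18.8 (14.7 ± 5.58), with overlapping groups (0.79 ± 1.095, adjusted p = 0.996).

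Nfatc1 in NF-kB1-deficient sham rested on 1 library. Replicate 2 held 39.4, or about 36 reads, against 2.21 and 1.26 in the other two, and 5.95, 6.29 and 1.30 in NF-kB1-deficient imiquimod (-0.44 ± 1.35, limma adjusted p = 0.996). Over the 12 libraries Nfatc1 had a mean of 5.91, against the filter mean of 5. Without NF-kB1-deficient sham replicate 2 it fell under the filter and had no test, which left 11 leave-one-out fits. The tests of Nfatc1 and its place among the 7 tested members thus hang on that library. For Il2ra the NF-kB1-deficient sham libraries held 2.94, 0 and 1.57 and the imiquimod libraries 4.11, 4.19 and 0. Each of these groups had a library at 0.

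Genotypes were compared next. Under sham cream 0 of 7 members and 0 of 1571 genes were called (0%), with 96 genes (6.11%) and no member at an unadjusted p under 0.05. Fold changes of the members ran from -0.26 (S100a6) to 1.48 on the log2 scale (Nfatc1, where NF-kB1-deficient sham replicate 2 stands apart). No member had non-overlapping groups, against 9.36% of all tested genes.

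Under imiquimod cream the markers that were high in wild-type cells were lower in NF-kB1-deficient cells, and Cd69 was higher, but no member passed the test. This comparison uses the same 3 wild-type imiquimod libraries as the first one, so both lean on the same values. Lgals1 and Cd44 also passed the filter only through those values. Called were 0 of 7 members and 1.78% of the 1571 genes, and at an unadjusted p under 0.05 there were 2 members (Lgals1 and Cd44) and 14.3% of all genes. Groups did not overlap for Lgals1, Cd44 and Icos, all lower in NF-kB1-deficient cells, and for Cd69, which was higher. Of all tested genes 21.1% had no overlap, 10.3% lower and 10.8% higher. Under imiquimod the NF-kB1-deficient libraries had summed gamma delta T cell markers of 92.7 to 127, plasma cell markers of 2.25 to 21.7 and regulatory T cell markers of 12.97 to 40.9, and their part in these differences was not tested.

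For Lgals1 the NF-kB1-deficient libraries held 2.79 to 3.51 against 38.8 to 62.4 in wild type, means of 3.18 ± 0.360 and 47.6 ± 12.9 (SD, n = 3 each). The log2 fold change was -3.51 ± 1.16 (SE; 95% interval -5.80 to -1.22), with a limma adjusted p of 0.101. It was called with a pseudocount of 10 (-2.11, adjusted p = 0.00142) and when the 6 imiquimod libraries were fitted alone (adjusted p = 0.00623). For Cd44 the values 6.51, 0 and 8.43 stood against 19.1, 22.1 and 53.5 (-2.83 ± 1.14, adjusted p = 0.203). For Icos they were 6.49 ± 2.26 and 20.6 ± 2.39 (-1.56 ± 1.14, adjusted p = 0.580).

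Cd69 and Nfatc1 had positive fold changes between genotypes under imiquimod. Nfatc1 overlapped between the groups (0.81 ± 1.35, limma adjusted p = 0.829). Cd69 was at 17.0, 8.38 and 18.8 (34, 12 and 29 estimated reads) against 6.81, 0 and 5.94 in wild type. By group mean it ranked 387th of 9732 genes in NF-kB1-deficient imiquimod. Its log2 fold change was 1.98 ± 1.095 (SE; 95% interval -0.18 to 4.15; limma adjusted p = 0.411), positive in all 20 alternative settings and called in none. The NF-kB1-deficient imiquimod libraries were deeper (45957 to 67043 estimated reads) than the wild-type ones, and the part of depth in this difference was not tested. S100a4 and S100a6 overlapped between genotypes (-0.88 ± 0.64, adjusted p = 0.582, and -0.69 ± 0.80, adjusted p = 0.739).

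Whether the imiquimod response itself differed between genotypes was tested by the interaction term, the response in NF-kB1-deficient minus that in wild-type cells. For Cd44 it was -3.86 ± 1.60 (SE; 95% interval -7.03 to -0.69; limma adjusted p = 0.337) and for Lgals1 -3.44 ± 1.64 (-6.68 to -0.20; adjusted p = 0.415). For Icos it was -2.75 ± 1.61 (adjusted p = 0.570) and for Cd69 1.26 ± 1.55 (adjusted p = 0.848). No member was called, against 0.446% of all genes, and at an unadjusted p under 0.05 Cd44 and Lgals1 stood beside 10.8% of all genes. A difference in response between genotypes was therefore not established for any of the 7 markers.

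Seen as a sum, the 10 markers took 0.336% to 0.532% of the library total in wild-type imiquimod and 0.116% to 0.282% in the other 9 libraries. That sum includes Lgals1, Cd44 and Icos, which were already highest in these same libraries. In wild-type imiquimod replicate 2 they held 41.6, 22.1 and 22.1 of a summed value of 125.8. In replicate 1, S100a4 and S100a6 held 60.8 and 39.8 of 184.2. The sum without Lgals1, Cd44 and Icos was not compared, so it is no trait of all 10. The order of group medians differed by gene. For Lgals1, Cd44 and Icos wild-type imiquimod came first, overlapping with NF-kB1-deficient sham for Icos, and the other 3 groups overlapped with each other. For Cd69 NF-kB1-deficient imiquimod came first and overlapped with NF-kB1-deficient sham. For S100a6 all 4 groups overlapped. For S100a4 they did too, except that wild-type imiquimod (22.8 to 60.8) lay above NF-kB1-deficient sham (16.4 to 21.4).

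The genes most like each tested marker were found by Pearson's r of log2(value + 1) over the 12 libraries, which share group differences and depth, so r is only a description. Lgals1 was nearest to Pcna (r = 0.91), a clamp protein of DNA replication, Stmn1 (0.89), a regulator of microtubules in dividing cells, and Atp5k (0.88), a subunit of ATP synthase. Cd44 was nearest to the translation termination gene Gspt1 (0.92), Rab14 (0.87) and Snrpd1 (0.86), and Icos to Sumo3 (0.94), Phf5a (0.93) and Ssbp1 (0.92). Cd69 was nearest to the amino acid transporter gene Slc38a1 (0.85), Rpl38 (0.79) and Ddx46 (0.76). S100a4 was nearest to Txn1 (0.84), Ndufa1 (0.80) and Anp32e (0.78), S100a6 to Utp3 (0.82), Azin1 (0.82) and Nedd4 (0.81), and Nfatc1 to Erbin (0.91), Nktr (0.82) and Nkg7 (0.78).

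Among the markers themselves Icos and Lgals1 had the highest r (0.83 over 12 libraries, and 0.80 after subtraction of group means). In wild-type sham both were above 0 only in replicate 2, the deepest library, so these values rest partly on that library. Cd44 and Lgals1 had 0.70 over all libraries and 0.29 after subtraction. S100a4 and S100a6, neighbours in the genome, had 0.39 and 0.24.

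Among other receptors that tune T cell activation, none of those tested was called higher in wild-type imiquimod. Of 24 further costimulatory and inhibitory receptor genes 19 were above 0 somewhere, and 3 passed the filter. In wild-type cells 1 of the 3 was called, and it fell, against 3.25% of all genes called and 1.59% called lower. The median was -2.87 over the 3 and -0.07 over all genes. It was Cd27, a costimulatory receptor of the TNF receptor family, which went from 64.3, 32.7 and 34.2 under sham to 4.19, 6.32 and 3.96 under imiquimod (-2.89 ± 0.66, SE; limma adjusted p = 0.00274). Under imiquimod Cd27 was higher in NF-kB1-deficient cells, at 19.4, 76.1 and 21.1 (2.51 ± 0.66, adjusted p = 0.0249), a call lost without NF-kB1-deficient imiquimod replicate 2 (1.89, adjusted p = 0.409). Vsir, which encodes the inhibitory receptor VISTA, was at 23.5, 9.27 and 8.70 in wild-type sham and 0, 5.26 and 0 in wild-type imiquimod (-2.87 ± 1.001, adjusted p = 0.0913). Tnfrsf1b, the other tested receptor, encodes TNF receptor II and had groups that overlapped (1.15 ± 1.25, adjusted p = 0.652 in wild-type cells). Cd28 itself was under the filter, between 0 and 7.66.

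Of 27 other S100, annexin, galectin and effector cytoskeleton genes 5 were tested, and 0 were called in any comparison. Vim, which encodes the intermediate filament vimentin, was at 90.1, 11.6 and 1.98 in wild-type imiquimod and at 1.12, 7.55 and 0 in wild-type sham (2.52 ± 1.13, limma adjusted p = 0.176), so its mean came from 1 library. Ahnak, a large scaffold protein, was at 12.1, 16.8 and 17.0 in wild-type imiquimod and 4.84, 4.19 and 1.95 in NF-kB1-deficient imiquimod (-1.85 ± 0.94, adjusted p = 0.347). Crip1, a small LIM domain protein gene, had overlapping groups in wild-type cells (1.62, adjusted p = 0.436).

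In the IL-2 receptor list 6 of 14 genes were tested and 1 was called, in the comparison of genotypes under imiquimod, where 1.78% of all genes were called. Bcl2, a survival gene downstream of cytokine receptors, was at 27.9, 26.5 and 27.5 in NF-kB1-deficient imiquimod and at 1.57, 5.26 and 0 in wild-type imiquimod (3.49 ± 0.92, SE; limma adjusted p = 0.0252). The groups lay far apart. The call was lost without wild-type imiquimod replicate 3 (0.0691) and without NF-kB1-deficient imiquimod replicate 1 (0.105), 2 (0.182) or 3 (0.120). Il2rb, the beta chain that pairs with CD25, was at 14.0, 14.9 and 22.4 in wild-type sham and at 14.7, 16.3 and 6.93 in wild-type imiquimod (-0.46 ± 0.99, adjusted p = 0.841). Jak1, the kinase bound to that chain, was at 6.29, 14.2 and 17.8 in wild-type imiquimod and higher without overlap, at 26.8, 42.3 and 22.4, in NF-kB1-deficient imiquimod (1.25 ± 0.59, adjusted p = 0.298).

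Of 19 calcineurin and NFAT genes 8 were tested and 0 called in any comparison, where between 0% and 3.25% of all genes were called. Nfatc3, a family member of Nfatc1, was at 40.2, 22.4 and 16.1 in wild-type sham and 8.38, 25.3 and 1.98 in wild-type imiquimod (-1.50 ± 0.84, limma adjusted p = 0.308). Ppp3cb, a catalytic subunit of calcineurin, was listed at 0 in all NF-kB1-deficient sham libraries. It stood at 4.61, 3.84 and 5.90 in NF-kB1-deficient imiquimod (2.52 ± 1.33, adjusted p = 0.996). In wild-type cells it was higher without overlap too, at 5.24, 7.895 and 45.6 under imiquimod and 4.80, 3.11 and 0 under sham (2.25 ± 1.33, adjusted p = 0.338). Of 20 activation-induced transcription factors 5 were tested and 0 were called. In wild-type cells 0 of the 5 tested fold changes were positive (median -1.76), against 48.1% of all 1571 (median -0.07), and 3.25% of all genes were called. These 5 do not stand for the whole list. Prdm1, a factor gene given above with the plasma cell markers, was under the filter and had no test. It ran the other way, with 6.81, 8.42 and 6.93 in wild-type imiquimod and 0 for each sham replicate of that genotype. Jun, a partner in AP-1, was at 20.7, 8.54 and 19.3 in wild-type sham and 0, 0 and 3.96 in wild-type imiquimod (-3.24 ± 1.09, adjusted p = 0.0762). Junb, another AP-1 partner, had a fold change of -1.76 ± 0.74 (adjusted p = 0.155). Jund was listed at 0 in all 3 wild-type imiquimod libraries and above 0 in all 6 NF-kB1-deficient ones. It was already low in wild-type sham, at 2.24, 6.345 and 0. Neither its imiquimod response in wild-type cells (-1.52 ± 1.23, adjusted p = 0.516) nor the genotype difference under imiquimod (3.71 ± 1.23, adjusted p = 0.101) was called.

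Genes of lymph node entry and exit, the setting in which CD69 acts, had 11 of 17 members tested and 0 called. Itga4, the alpha chain of the VLA-4 integrin, was at 13.4, 17.1 and 6.21 in wild-type sham and 1.05, 0 and 0 in wild-type imiquimod (-3.28 ± 1.11, limma adjusted p = 0.0796). Spn, which encodes the activation-associated sialoglycoprotein CD43, was at 21.5, 46.8 and 64.4 in wild-type imiquimod and 9.01, 14.3 and 8.43 in NF-kB1-deficient imiquimod (-1.87 ± 0.77, adjusted p = 0.220). Neither passed the threshold.

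**Figure D3:**
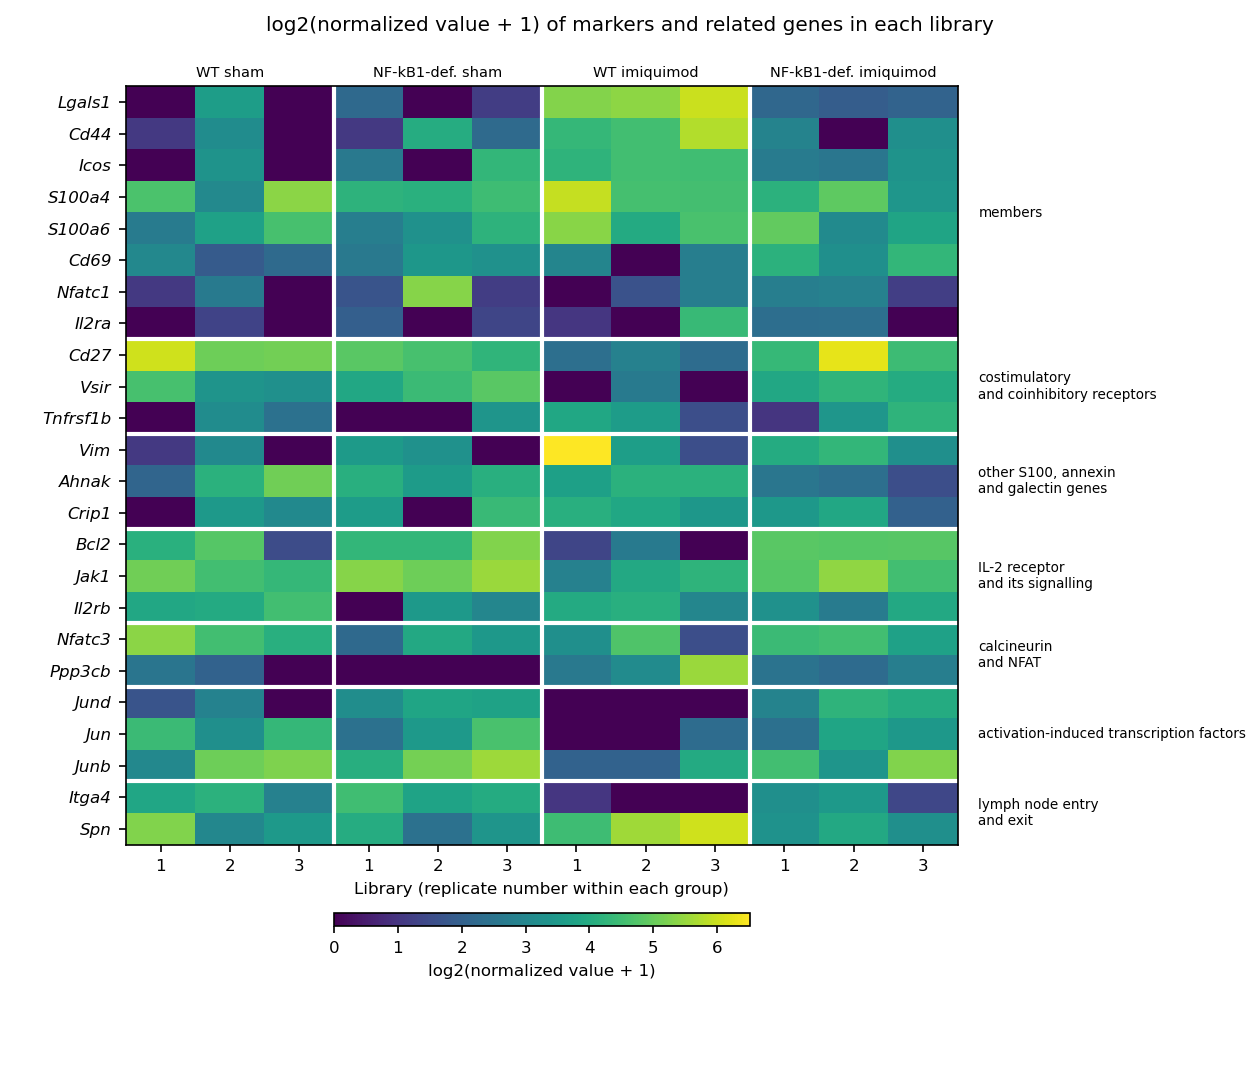
log2(normalized value + 1) of 8 markers (Pdcd1 and Ctla4 are left out) and 16 related genes (rows) in the 12 libraries (columns, by group and replicate). In the 3 wild-type imiquimod columns Lgals1, Cd44 and Icos are bright, and Cd27, Bcl2, Jun and Itga4 are dark.

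**Figure D4:**
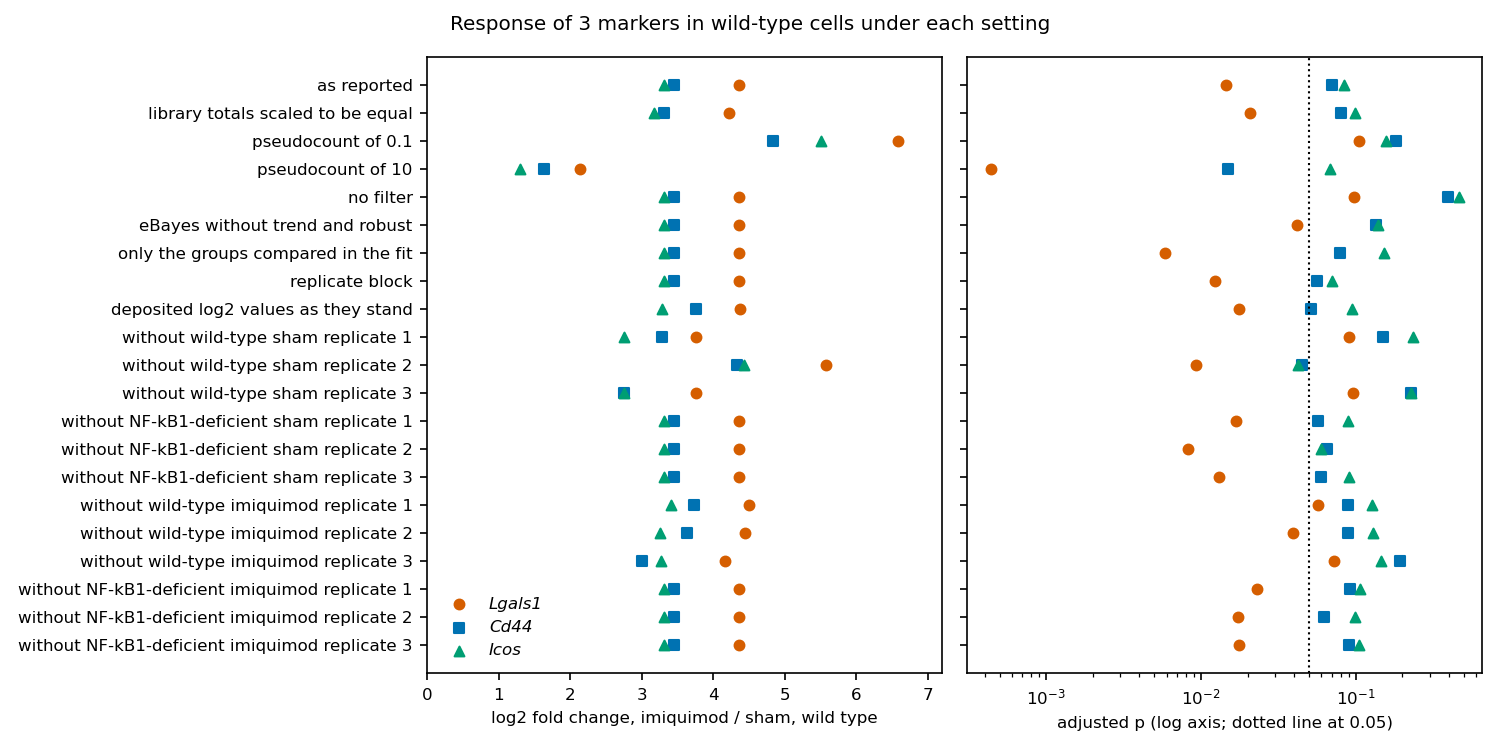
log2 fold change (left) and adjusted p (right, log axis) of Lgals1, Cd44 and Icos for imiquimod against sham in wild-type cells under each setting. All folds are above 0, and Lgals1 moves across the 0.05 line with a pseudocount of 0.1, with no filter, and when either of 2 sham or 2 imiquimod libraries is left out.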

How the data were processed

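Per the labels' protocols, RNA came from Trizol extracts and libraries from the QuantSeq 3' kit (FWD), which gives about 1 fragment per transcript, near its 3' end. The submitters' processing notes name mm10. How reads were aligned, counted and normalized is not given in the sources used here. What the authors deposited are log2 normalized read counts. These were taken back to the linear scale, with any log2 value of 0 or less as 0. Of the values under 20 estimated reads, 71.2% to 80.3% came out whole (tolerance 0.01 read), so no count test was run. Tests used limma 3.58.1 in R 4.3.3 on log2(value + 1) for the 1571 genes with a mean of at least 5 over 12 libraries, with 1 coefficient per group and a trended, robust eBayes step (8 residual degrees of freedom, median prior 145). Benjamini-Hochberg adjustment ran over all 1571 genes in each of 5 comparisons, and genes were called at an adjusted p under 0.05. Fold changes on this scale understate the change of low genes.

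Members and lists were chosen with earlier results of these data known. Named are all members, called genes of 6 related lists with each list's 3 lowest unadjusted p over the comparisons, and the 3 genes of highest r with each tested member. Some genes this rule names are not reported here. Coordinates and promoters are from RefSeq GRCm38.p6. All 12 columns were used. Alternatives changed the pseudocount, filter, scaling, variance model, samples fitted, block and libraries.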

Additional observations from a re-analysis of the deposited data

How the results depend on the processing

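Over the 20 alternative settings the wild-type folds of Lgals1 (2.14 to 6.59), Cd44 (1.63 to 4.83) and Icos (1.30 to 5.51) stayed positive; Lgals1 was called in 14, Cd44 in 2 and Icos in 1. The number of members called in wild-type cells (1) was 0 with a pseudocount of 0.1, with no filter and with a mean of at least 20 (where S100a4 alone was tested), 2 with a pseudocount of 10, and 0 to 3 without 1 library. Under imiquimod 1 member, Lgals1, was called between genotypes with a pseudocount of 10 and with the 2 groups fitted alone, and 0 in every leave-one-out fit. The other 3 comparisons had 0 called members in every setting. Among all genes, the wild-type count of 51 was 26 with a pseudocount of 0.1, 11 with no filter, 18 without trend and robust, 28 with the 2 groups alone, and 26 to 73 without 1 library. The genotype count under imiquimod, 28, was 18, 3, 0 and 17 in those 4 settings and 4 to 42 without 1 library. The interaction count of 7 was 1 with no filter, 0 without trend and robust, 13 with a mean of at least 20, and 2 to 12 without 1 library. The count for imiquimod in NF-kB1-deficient cells was 1 with those groups alone, and that for genotype under sham 0 to 1 without 1 library. Apart from leaving libraries out and testing other sets of genes, the causes were not tested.

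Equal library totals moved the median of all genes from -0.07 to -0.25 in wild-type cells and from 0.14 to 0.34 for genotype under imiquimod, and the split of wild-type calls from 26 of 51 higher to 19 of 48 and of the genotype calls under imiquimod from 20 of 28 to 25 of 30. A pseudocount of 10 moved both splits the other way, to 47 of 72 and to 11 of 28 higher. With equal totals Lgals1 had 4.22 (adjusted p = 0.0207). Testing the deposited log2 values as they stand, a choice added after seeing the data, left all member calls as they were. Whether replicate numbers pair the samples was not settled. Deviations of same-numbered libraries had r of -0.01 to 0.06 (median 0.016), and those of differently numbered libraries -0.06 to 0.04 (median -0.004). None of either kind was over 0.1, and 9 of 12 libraries correlated best with their own number. With the replicate block Lgals1 had the same fold, 4.37 (adjusted p = 0.0122), and the block changed no member call. Among related genes, the Cd27 call in wild-type cells was lost with no filter (adjusted p = 0.0654) and without trend and robust (0.0596). Under imiquimod, Cd27 and Bcl2 were also not called in those settings (0.410 and 0.195 for Cd27, 0.283 and 0.173 for Bcl2) or with the 2 groups alone (0.103 and 0.0817). Tcrd in wild-type cells was likewise not called in those 3 settings (0.299, 0.175 and 0.0543). Members under the filter were tested only with no filter, where none was called. Depth limits Il2ra, Pdcd1 and Ctla4 most.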
